A study of Rattus norvegicus with 2 samples.

Results

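The troponins described here are the 6 genes of skeletal muscle's fast and slow troponin complexes, picked by gene symbol. Tnnt3, Tnni2 and Tnnc2 encode the fast troponins T, I and C, and Tnnt1, Tnni1 and Tnnc1 encode the slow ones. They are 6 of the 23373 rat genes counted in both libraries and 6 of the 25906 mouse genes counted in the chimera library as well. Single-cell transcripts were counted in dissociated skeletal muscle of 1 Sprague-Dawley (SD) rat and of 1 rat-mouse chimera, to ask which muscle cells the mouse part of the chimera had formed. To make the chimera, induced pluripotent stem cells (iPSCs) of a mouse were injected into a morula of the SD strain. The iPSCs were an edited clone from a Dmd mdx mouse, whose dystrophin gene they carried in a CRISPR/Cas9-edited form with its reading frame restored, together with a Pax7-nGFP reporter transgene, and the SD rat carried none of these changes. The host's own satellite cells were not removed. Muscle was collected over the whole body of each animal, in unstated proportions, neither animal's age is given in the labels, and each group was 1 animal and 1 library, which leaves every difference between them without replicates.

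Troponin sits on the thin filament of the sarcomere and couples calcium to contraction. Troponin C binds calcium, troponin I holds back the interaction of actin with myosin until calcium rises, and troponin T anchors the complex to tropomyosin. Fast-twitch and slow-twitch fibres build this complex from separate genes, so the troponin transcripts of a fibre are read here as fast or slow, with no finer type. Tnnt2 and Tnni3 encode the cardiac troponins T and I, and Tnnt2 is also used by embryonic and regenerating skeletal muscle, while Tnnc1 serves both slow skeletal muscle and the heart.

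Upstream sequences were available for 4 of the 6 members, both fast (Tnni2, Tnnc2) and slow (Tnnt1, Tnni1), and are shown because the members of each set were read together throughout. Each is the 250 bases before the annotated start in the rat, from RefSeq (build GRCr8, while the counts were made on mRatBN7.2), written 5′ to 3′ on the strand of the gene. Capitals mark E-boxes (CANNTG), the hexamer that myogenic factors of the MyoD family bind.
Tnni2, GRCr8 chr1:207024240-207024489, plus strand: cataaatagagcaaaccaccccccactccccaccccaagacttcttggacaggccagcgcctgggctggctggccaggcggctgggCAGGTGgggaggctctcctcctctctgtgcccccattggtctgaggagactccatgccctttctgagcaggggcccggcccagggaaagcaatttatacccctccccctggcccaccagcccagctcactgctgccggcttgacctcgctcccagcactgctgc
Tnnc2, GRCr8 chr3:173935340-173935589, minus strand: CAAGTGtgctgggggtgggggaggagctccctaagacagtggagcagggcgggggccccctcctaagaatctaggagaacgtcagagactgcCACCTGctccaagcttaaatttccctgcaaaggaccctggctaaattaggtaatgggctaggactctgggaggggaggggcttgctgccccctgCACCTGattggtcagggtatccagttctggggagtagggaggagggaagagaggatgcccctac
Tnnt1, GRCr8 chr1:78348785-78349034, plus strand: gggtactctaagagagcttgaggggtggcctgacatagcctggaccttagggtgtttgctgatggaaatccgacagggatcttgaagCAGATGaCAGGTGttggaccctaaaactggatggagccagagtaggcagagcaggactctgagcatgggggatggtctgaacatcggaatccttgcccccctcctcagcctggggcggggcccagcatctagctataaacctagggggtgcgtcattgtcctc
Tnni1, GRCr8 chr13:49781279-49781528, plus strand: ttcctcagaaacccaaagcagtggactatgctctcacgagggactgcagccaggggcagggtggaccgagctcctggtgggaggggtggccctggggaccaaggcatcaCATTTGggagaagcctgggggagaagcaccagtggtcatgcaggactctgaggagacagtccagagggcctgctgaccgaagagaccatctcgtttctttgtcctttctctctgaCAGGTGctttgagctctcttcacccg
Tnni2 held 1 E-box, Tnnc2 held 3, and Tnnt1 and Tnni1 held 2 each. All 4 held the form CACCTG on one strand or the other, which is itself a CANNTG match, with 2 copies in Tnnc2 and 1 in each of the others. Across 33469 RefSeq rat promoters of the same length, 65.5% held a CANNTG and 15.9% a CACCTG on either strand. A match is a stretch of letters and not a measured binding site, and it did not separate the fast genes from the slow ones.

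The chimera library held 13299 barcodes and the SD rat library 10117, with medians of 7407 and 5373 unique molecular identifiers (UMIs, each a captured transcript tag), and 11730 and 8816 barcodes remained after filters. Both libraries contained 43 barcodes of the same sequence. Chimera barcodes were called rat with at most 20% of their UMIs on mouse genes, mouse with at least 80%, and mixed in between. Clusters were named myofibre-like from 10 fixed markers with no troponin among them, and the troponins were left out of the clustering. This gave 1522 myofibre-like barcodes in the SD rat, 831 chimera rat, 415 chimera mixed and 29 chimera mouse barcodes. Those markers took a median of 13.5%, 13.3%, 12.1% and 11.7% of the UMIs of a myofibre-like barcode. The medians were at most 0.212% in fibro-adipogenic progenitor-like (FAP-like) barcodes and at most 1.30% in endothelial cell-like ones. Since the same markers named the clusters, these shares describe the naming and do not check it. Median depth was 3667, 5402, 3811 and 2936 UMIs. UMIs are counted at the 3′ end of a transcript and were not divided by gene length. All intervals are 95% intervals of counting error alone, and without further replicates they do not cover differences between animals or libraries.

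Fast troponins made up 12.4% of all UMIs of SD rat myofibre-like barcodes, 12.1% in chimera rat, 10.6% in mixed and 10.4% in mouse barcodes. Slow troponins made up 0.136%, 0.0836%, 0.0918% and 0.000936%. The median myofibre-like barcode carried 452 fast UMIs in the SD rat (quartiles 286 and 689), 666 in chimera rat (496 and 927), 366 in mixed (166 and 652) and 326 in mouse barcodes (159 and 416). No slow troponin UMI at all was counted in 71.2%, 90.5%, 94.0% and 96.6% of them. Nearly all myofibre-like barcodes of both animals were of the fast troponin type.

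Barcodes were called mostly slow when over 50% of their troponin UMIs fell on the 3 slow genes, and every myofibre-like barcode had the 10 troponin UMIs that this required. Mostly slow barcodes numbered 41 of 1522 in the SD rat (2.69%, interval 1.94 to 3.64), 14 of 831 in chimera rat (1.68%, 0.924 to 2.81) and 4 of 415 in mixed barcodes (0.964%, 0.263 to 2.45). The intervals of the SD rat and chimera rat shares overlapped. Of the 29 mouse barcodes 0 were mostly slow, which allows a share of up to 10.3%, so mouse fibres with slow troponin were not detectable at this number. These few barcodes held 88.9% of all slow troponin UMIs of SD rat myofibre-like barcodes, 86.6% in chimera rat and 95.7% in mixed barcodes. The split was not sharp everywhere. In the SD rat 41 barcodes had between 10% and 90% slow UMIs, 11 of which lay under 50%, and 11 barcodes exceeded 90%. In chimera rat 9 were intermediate and 7 exceeded 90%, and in mixed barcodes 3 and 2.

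**Figure D1:**
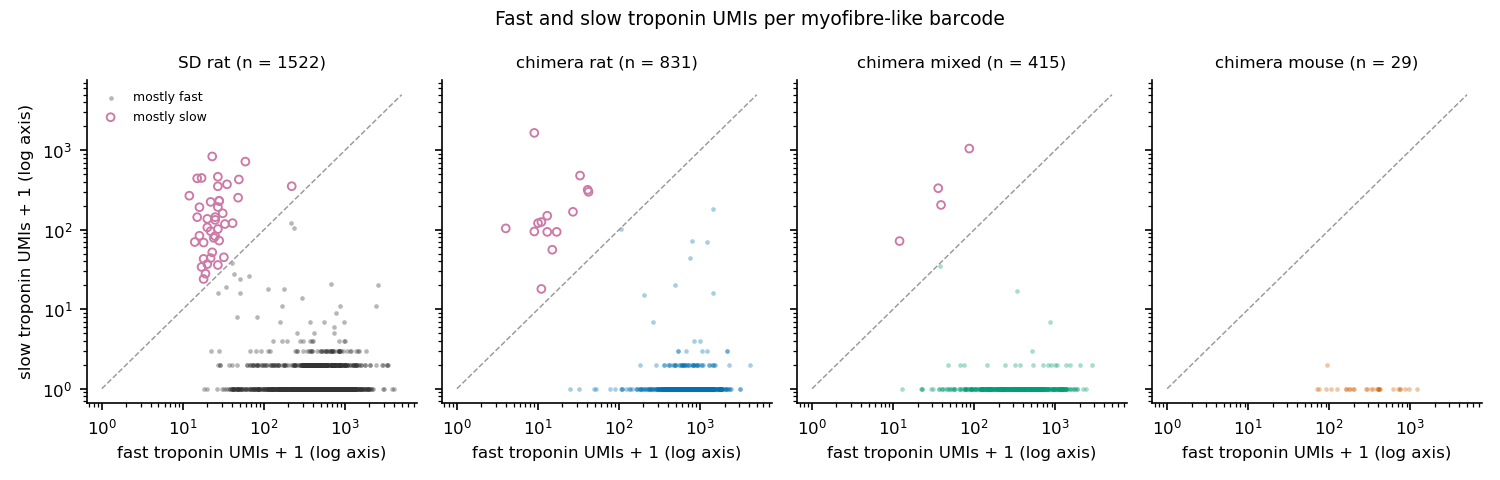
Slow against fast troponin UMIs of each myofibre-like barcode, both with 1 added and on log axes, in SD rat (n = 1522), chimera rat (n = 831), chimera mixed (n = 415) and chimera mouse (n = 29) barcodes. Pink circles are mostly slow barcodes above the dashed line of equal counts, 41, 14, 4 and 0 in number, and the dense rows at the bottom are barcodes with 0 to 2 slow UMIs.

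Troponin T gave the most slow transcripts. Tnnt1 reached 25370 CPM (its UMIs per 1000000 UMIs of the same barcodes, interval 24600 to 26157) in mostly slow SD rat barcodes against 68.4 in mostly fast ones, and 23878 against 43.7 in chimera rat. A mostly slow SD rat barcode carried between 13 and 435 Tnnt1 UMIs with a median of 62, whereas 14.6% of mostly fast ones had any. Its fast counterpart Tnnt3 went the other way, with 1976 against 44718 CPM in the SD rat and 904 against 45694 in chimera rat. Troponin I followed. Tnni1 was at 8720 against 41.2 CPM in the SD rat and 10137 against 32.0 in chimera rat, and Tnni2 at 1599 against 33509 and 356 against 27504. For troponin C, the calcium sensor, Tnnc1 was at 15513 against 45.5 CPM in the SD rat and 17535 against 38.2 in chimera rat, while Tnnc2 was at 3786 against 48250 and 2041 against 49068. The slow gene supplied 92.8% of troponin T UMIs in mostly slow SD rat barcodes, 84.5% of troponin I and 80.4% of troponin C, and 96.4%, 96.6% and 89.6% in chimera rat. In chimera rat 1 barcode held 1653 of the 4347 slow UMIs, and without it Tnnt1, Tnni1 and Tnnc1 were at 21816, 9014 and 15903 CPM and Tnnt3, Tnni2 and Tnnc2 at 1395, 576 and 3189 in mostly slow barcodes. Clustering without the troponins had put all 41 mostly slow SD rat barcodes in 1 cluster of 341, led by Myl3, Myl2, Ca3 and Mb, and all 14 of chimera rat in 1 cluster of 25. Because mostly slow barcodes were picked by the same counts, the contrast describes the 2 kinds and tests nothing. Mostly slow barcodes were shallower than mostly fast ones (median 2703 against 3679 UMIs in the SD rat, 2902 against 5442 in chimera rat) and held a larger share of UMIs on mitochondrial genes (1.48% against 0.728%, and 5.34% against 0.301%).

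**Figure D2:**
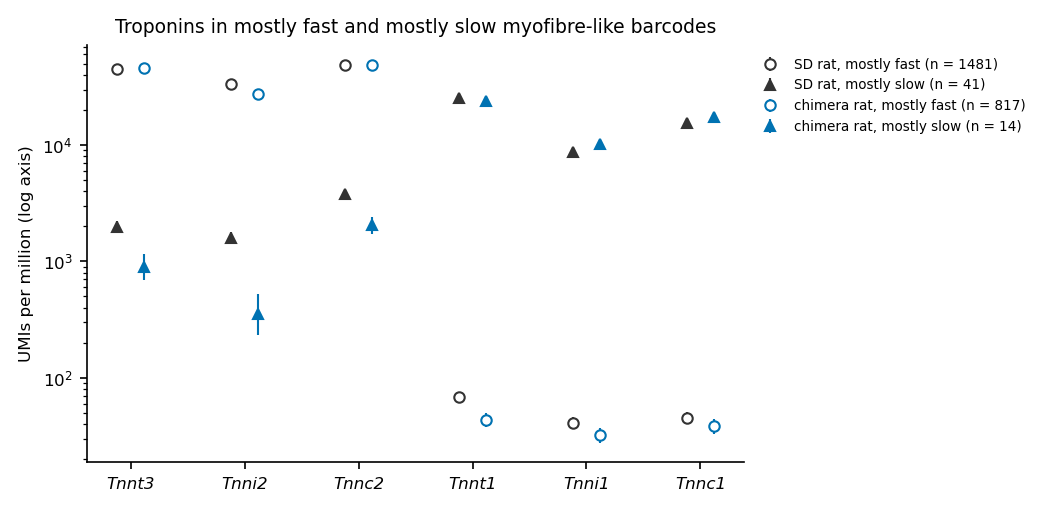
CPM (log axis) of the 6 troponins in mostly fast (open circles) and mostly slow (filled triangles) myofibre-like barcodes of the SD rat (n = 1481 and 41) and of the chimera's rat cells (n = 817 and 14), with 95% counting intervals. The slow genes sit between 32.0 and 68.4 in mostly fast barcodes and at 8720 or more in mostly slow ones, and Tnnc2 is the highest of the fast genes in mostly slow ones at 3786 and 2041.

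Over all myofibre-like barcodes the 3 subunits nearly always told the same type. Agreement was less complete among SD rat barcodes with any slow pair, where 34 agreed and 9 were split. With at least 3 UMIs for each subunit pair in every myofibre-like barcode, all 3 pairs were fast in 1479 SD rat barcodes, all 3 slow in 34, and 9 were split. In chimera rat the numbers were 816, 13 and 2, in mixed barcodes 410, 4 and 1, and all 29 mouse barcodes were fast in every pair. Of the 9 split SD rat barcodes, troponin T was slow in 8, and 4 of those combined slow T and C with fast I. The proportions within a set were also steady. In mostly fast barcodes, Tnnc2 gave a median of 38.3% of fast UMIs in the SD rat, 40.1% in chimera rat, 40.6% in mixed and 39.6% in mouse barcodes. Tnni2 was the lowest of the 3, with 26.7%, 22.2%, 22.8% and 24.0%, and Tnnt3 made up 34.6%, 37.3%, 36.1% and 36.5%. In mostly slow barcodes Tnnt1 gave a median of 52.1% of slow UMIs in the SD rat and 46.0% in chimera rat, and was the highest slow gene in 39 of 41 and 13 of 14 barcodes. Tnnc1 came next with 30.7% and 34.1%, and Tnni1 last with 16.7% and 20.6%.

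Among genes that passed a count minimum, those of slow and fast fibres mostly moved with the troponin type. Of all genes other than the members with enough UMIs, 9.87% of 3038 were at least 2-fold higher in mostly slow SD rat barcodes and 5.76% at least 2-fold lower, and in chimera rat 19% and 5.2% of 2135. Against that background, 9 of the 9 slow-fibre genes that passed the count minimum were at least 2-fold higher in the SD rat (median log2 difference 6.03, all genes 0.13) and 8 of 8 in chimera rat (median 6.32, all genes 0.45), out of 12 listed. Slow tropomyosin Tpm3 differed most in the SD rat (log2 8.23, 13166 against 43.8 CPM), followed by the ventricular and slow myosin light chain Myl2 (7.41), the slow myosin heavy chain Myh7 (7.34), the light chain Myl3 (6.97) and the muscle ankyrin repeat gene Ankrd2 (6.03). Myh7 and Tpm3 led in chimera rat with 9.76 and 9.50. The minimum of 100 UMIs was taken over mostly slow and mostly fast barcodes together. A slow-fibre gene could pass it through mostly slow barcodes, so 9 of 9 and 8 of 8 were partly set by it. Of 11 slow-fibre genes measured in each animal, those below it were not compared. The background genes met the same minimum. Of the 9 measured fast-fibre genes, 7 were at least 2-fold lower in the SD rat and none higher (median -3.12), and 8 in chimera rat (median -3.30). Of those 8, Mybpc2 and Actn3 had 0 UMIs in mostly slow chimera rat barcodes and were set to the limit of 3 counts, as was Myh2, which was not among the 8. Fast-fibre alpha-actinin Actn3 (-5.43), the fast myosin heavy chain Myh4 (-5.37), fast myosin-binding protein Mybpc2 (-4.94), the regulatory light chain Mylpf (-3.53) and the Z-disc gene Myoz1 (-3.12) differed most in the SD rat. Myh1, Atp2a1, Pvalb and Myl6b had no row under those symbols among the rat genes.

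Thin filament genes, the partners of troponin, were divided. Of the 9 listed, 3 were at least 2-fold higher and 2 lower in mostly slow SD rat barcodes, and 3 and 1 in chimera rat, or 2 and 1 without the barcode of most slow UMIs. Tpm1 was lower in both (log2 -4.39 and -6.33), opposite to Tpm3. The filament-length gene Lmod2 was higher (3.95 and 5.24), as were the actin Actc1 (2.10 and 1.92) and Tpm2 (1.24 and 1.29), a tropomyosin of slow and fast fibres. Tmod1, the pointed-end cap, was at 24.7 CPM against 54.0 in the SD rat from 4 UMIs and at 89.3 against 63.2 in chimera rat. Of the 5 developmental genes 3 passed the count minimum in each animal. In the SD rat Actc1 and Tnnt2 were at least 2-fold higher and Myl4 lower, the last 2 from 9 and 2 UMIs in mostly slow barcodes, and in chimera rat Actc1 was higher.

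Slow myosin and tropomyosin genes ranked most like the slow troponins across barcodes, and fast ones most like the fast troponins. Over the 1522 SD rat myofibre-like barcodes and 2040 genes, the level of the summed slow troponins ranked most like Tpm3 (Spearman rho 0.25), Myl3 (0.25), Myl2 (0.25), Myoz2 (0.24) and the lactate dehydrogenase gene Ldhb (0.22). In the 831 chimera rat barcodes these were 0.28, 0.41, 0.41, 0.34 and 0.33. The summed fast troponins ranked most like Mylpf (0.74), Tpm1 (0.62), Myl1 (0.47), the unnamed gene ENSRNOG00000006471 (0.44) and the muscle creatine kinase gene Ckm (0.41), and in chimera rat these were 0.69, 0.49, 0.25, 0.05 and 0.08. The barcodes share a library and differ in depth and in RNA from other cells, so these values describe the tables and carry no test.

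Troponin UMIs were also counted in nearly every barcode of the other named classes, and apart from mast-like barcodes the median number per barcode was similar among them within each population. In the SD rat the median was 20 fast UMIs in FAP-like barcodes (quartiles 16 and 25) at a median depth of 11026 UMIs, and 21 in endothelial cell-like (EC-like) barcodes (17 and 25) at 1827 UMIs. Across the 9 SD rat classes of at least 50 barcodes outside muscle, medians ran from 13 in mast-like barcodes to 21. In chimera rat they ran from 6 to 11 over 11 classes, in mixed barcodes from 10 to 11 over 5 and in mouse barcodes from 9 to 11 over 6. Unnamed clusters were not among these classes. The 66 unnamed chimera mouse barcodes had a median of 16 and the 163 of the SD rat 20, while 20 unnamed chimera rat barcodes led by RT1-Db1, RT1-Da and Cd74 had 201.5, with 19 of them at 50 or more. Within some classes the number changed little with depth. The quartile of SD rat EC-like barcodes with the lowest depth (median 658 UMIs) held a median of 20 fast UMIs and the quartile with the highest (5387 UMIs) held 21, whereas in myofibre-like barcodes the corresponding medians were 154 and 937. Other classes rose more, from 11 to 17 in SD rat mast-like, from 3.5 to 7 in chimera rat mast-like, from 10 to 14 in mixed FAP-like and from 6 to 11 in mouse T or NK-like barcodes. FAPs and endothelial cells should lack sarcomere genes, so these counts are read as background and not as expression.

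As a share of UMIs the same counts differed between classes of unequal depth. Fast troponins were at 2963 CPM in SD rat FAP-like barcodes and 10149 CPM in EC-like ones, 2.40% and 8.21% of the myofibre-like level. Actin Acta1 stood at 2.41% and 7.50% of its myofibre-like level in the same classes. In chimera rat, FAP-like and EC-like barcodes were at 1505 and 2859 CPM. Fast troponin UMIs were found in 100% of SD rat and 99.7% of chimera rat FAP-like barcodes. After thinning each barcode to 1000 UMIs of its own species the shares were 83.3% (82.0 to 84.6, 2 barcodes too shallow) and 61.6% (59.7 to 63.4, 9 too shallow). Mixed FAP-like barcodes were at 73.5% (66.9 to 79.4, 5 too shallow), and mouse FAP-like barcodes, by mouse genes alone, at 10.6% (5.75 to 17.4, 3 too shallow) against 72.2% before thinning. Slow troponins were at 32.9 to 134.6 CPM in the other SD rat classes and at 3.32 to 16.3 CPM in chimera rat. They made up 1.24% of troponin UMIs in SD rat FAP-like barcodes (1.18 to 1.31) and 1.09% in myofibre-like ones (1.07 to 1.11), and 0.424% and 0.689% in chimera rat.

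**Figure D3:**
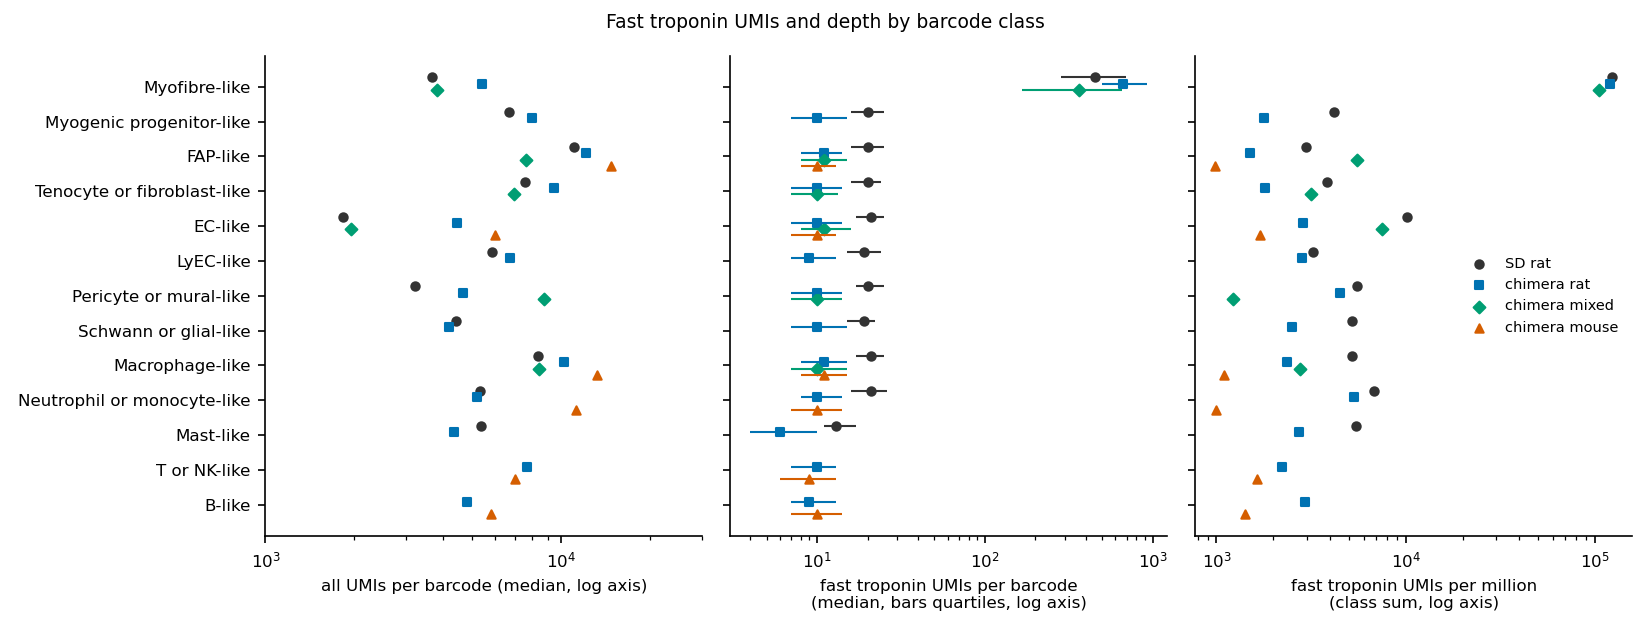
Median UMIs per barcode (left), fast troponin UMIs per barcode with median and quartiles (middle) and fast troponin CPM of the class (right), all on log axes, for named classes of at least 50 barcodes in the 4 populations, rat and mouse genes summed. Outside muscle the middle panel is almost flat, at medians of 19 to 21 in the SD rat and 9 to 11 in the chimera except in mast-like barcodes (13 and 6), while depth differs between classes.

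In most named classes the species mix of these background UMIs did not follow that of the barcode. In chimera mouse FAP-like barcodes, 1657 fast UMIs fell on the rat genes and 194 on the mouse genes, a mouse share of 10.5% (9.12 to 12.0). In chimera rat FAP-like barcodes it was 9.60% (9.35 to 9.85), and in mouse EC-like barcodes 13.0% (12.5 to 13.6). Mixed FAP-like barcodes were higher at 21.1%, the 66 unnamed chimera mouse barcodes higher still at 29.7% (27.5 to 31.9), and chimera rat lymphatic endothelial cell-like ones lower at 5.00%. Over all chimera myofibre-like barcodes together the mouse share was 12.6%, and over all other barcodes 10.2%. Leaving out barcodes with 50 or more fast UMIs, FAP-like barcodes stood at 11.8% in rat, 11.7% in mixed and 14.2% in mouse barcodes, and the unnamed chimera mouse ones at 33.0%. The makeup was also close to that of fibres. Tnni2 supplied 26.5% of fast UMIs in both FAP-like and myofibre-like barcodes of the SD rat, and 23.3% and 23.0% in chimera rat.

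Set beside this background, the fast UMIs of mostly slow barcodes stood near it in number in the SD rat. Mostly slow SD rat barcodes carried a median of 23 fast UMIs (quartiles 17 and 27), next to 20 and 21 in FAP-like and EC-like barcodes. In chimera rat the median was 12 (9.25 and 23.5), next to 11 and 10. The makeup differed. Tnnc2 gave 51.4% of the fast UMIs of mostly slow SD rat barcodes (48.5 to 54.3), with a median of 12 UMIs, against 39.8% and a median of 8 in FAP-like ones. In chimera rat it gave 61.8% (55.4 to 68.0) against 40.1%, with medians of 6.5 and 4. Tnnt3 and Tnni2, at medians of 6 and 5 UMIs in mostly slow SD rat barcodes, stood near the 7 and 5 of FAP-like barcodes. In the other direction, slow UMIs were present in 26.9% of mostly fast SD rat barcodes, 9.99% after thinning (8.47 to 11.7, 80 too shallow), inside the 2.74% to 11.7% of the classes outside muscle. In chimera rat they were present in 7.96% of mostly fast barcodes, 2.09% after thinning (1.22 to 3.33, 5 too shallow), against 0% to 1.22% in those classes. As CPM, slow troponins of mostly fast barcodes stood above those classes in both animals. They were at 155 CPM (146 to 165) against 32.9 to 134.6 in the SD rat, with up to 121 UMIs in a barcode. In chimera rat they were at 114 CPM (105 to 124) against 3.32 to 16.3, with up to 179 UMIs.

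A few classes departed from the fibre makeup. In chimera rat, Tnnt1 was more frequent in macrophage-like barcodes than in FAP-like ones. A Tnnt1 UMI was found in 9.90% of 859 macrophage-like barcodes, against 1.87% of FAP-like and 4.19% of myogenic progenitor-like ones, and after thinning in 1.52% (0.810 to 2.58), 0.258% (0.104 to 0.530) and 0.761% (0.157 to 2.21), at median depths of 9208, 10714 and 7160.5 UMIs on rat genes. Tnnt1 supplied 76.4% of their slow UMIs (68.0 to 83.5) against 44.8% in myofibre-like barcodes, and none of them held more than 2 Tnnt1 UMIs. In the SD rat Tnnt1 was also more frequent in macrophage-like than in FAP-like barcodes, at 24.0% against 14.9%. Thinned, the shares were 4.15% (2.52 to 6.40) and 1.85% (1.42 to 2.38). Whether the macrophage-like barcodes stood apart from other SD rat classes depended on the class and on thinning. Lymphatic endothelial cell-like ones were alike, at 23.1% and, thinned, at 4.63%. EC-like and pericyte or mural-like ones were lower before thinning, at 14.9% and 12.5%, and at 6.20% and 5.65% thinned. Their median depths were 1827 and 3218 UMIs, against 8359.5 in macrophage-like ones. Tnnt1 supplied 59.9% of slow UMIs in SD rat macrophage-like barcodes (53.4 to 66.2) and 68.2% in lymphatic endothelial cell-like ones (52.4 to 81.4). In SD rat myofibre-like barcodes it supplied 50.4%. Tnni2 stood out among the fast genes in 66 chimera mouse barcodes that stayed unnamed and were led by Cd74, H2-Ab1 and H2-Eb1, genes of antigen presentation. Of their 506 fast UMIs on mouse genes, 315 were Tnni2 (62.3%, 57.9 to 66.5), against 23.3% in mouse myofibre-like barcodes, and 87.9% of these barcodes had one. Mouse macrophage-like barcodes stood at 45.3% (36.1 to 54.8) from 117 fast UMIs. An unnamed group of 163 SD rat barcodes led by Ccl5, RT1-Da and Cd74 did not show it (26.0%). Both departures were picked after the values were seen, and overlap of reads with neighbouring genes was not tested for either.

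Within chimera fibres, the mouse share of troponin UMIs climbed with that of the other UMIs. Mixed myofibre-like barcodes had a median of 40.3% of their troponin UMIs on mouse genes, against 49.1% of their other UMIs, and 321 of 415 lay between 20% and 80%. At least 3 troponin UMIs of each species were counted in 413 of them. From barcodes with 20% to 30% of other UMIs on mouse genes to those with 50% to 60% and 70% to 80%, the median mouse share of troponin UMIs rose from 15.5% to 48.7% and 72.1%. Mouse troponin lagged the rest in most barcodes, and it was the higher of the pair in 49 mixed and 13 mouse barcodes and in 0 rat barcodes. A fibre that holds nuclei of both species and a droplet that holds material of separate fibres cannot be told apart from these counts.

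**Figure D4:**
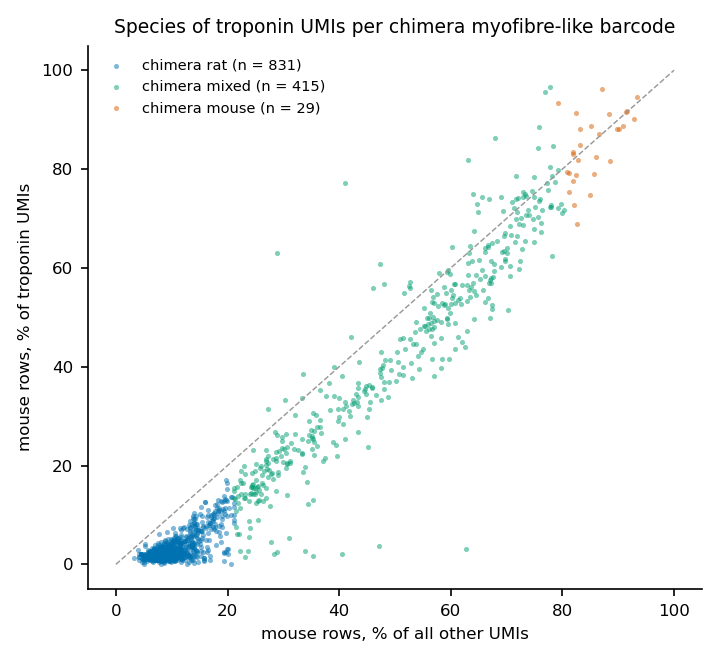
Share of troponin UMIs on mouse genes against the share of all other UMIs on mouse genes, both in percent, for each chimera rat (n = 831), mixed (n = 415) and mouse (n = 29) myofibre-like barcode. Points climb together along the dashed line of equality and mostly below it, with medians of 40.3% and 49.1% in mixed barcodes.

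The fast genes shared this mix and the slow genes held less mouse. In mixed barcodes the mouse share was 39.1% for Tnnt3, 34.4% for Tnni2 and 37.5% for Tnnc2, and 21.7% (19.0 to 24.6) for Tnnt1, 16.9% (12.7 to 21.9) for Tnni1 and 16.3% (13.3 to 19.5) for Tnnc1, where 1051 rat-mouse gene pairs had a median of 42.9%. Nearly all slow UMIs came from the 4 mostly slow mixed barcodes, whose overall mouse share was 22.7%, 27.4%, 24.5% and 24.4%, so the slow values describe these 4. Tnnc2 did not follow in them. Its rat and mouse UMIs numbered 7 and 1 in the shallowest barcode, 9 and 17 in the next, 8 and 17 in the third, and 11 and 63 in the deepest, a mouse share of 73.7% over the 4 (65.3 to 80.9) and of 59.3% (45.7 to 71.9) without the deepest, which held 60.6% of all slow UMIs of mixed myofibre-like barcodes. Tnnt3 held 26.9% of 26 UMIs. In the 14 mostly slow chimera rat barcodes 6 of 149 Tnnc2 UMIs were mouse. In chimera mouse barcodes Tnnt3, Tnni2 and Tnnc2 were at 85.2%, 83.3% and 84.9% mouse, beside a median of 88.3% over 112 gene pairs. On mouse genes they had 0 slow UMIs, which allows up to 32.6 CPM. In chimera rat barcodes 6.51% of Tnnt3 UMIs fell on the mouse gene, against 1.49% for Tnni2 and 1.80% for Tnnc2 and a median of 3.83% over 2092 pairs. Reads that match both species cannot be told apart from mouse RNA here.

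Myogenic progenitor-like barcodes, the stem and precursor cells of fibres, held fast troponins at background numbers, with a median of 20 UMIs in the SD rat and 10 in chimera rat and mouse. The cardiac and developmental Tnnt2 was instead higher with Myog. In SD rat progenitors with a UMI of the differentiation factor Myog, Tnnt2 was at 298.9 CPM (261 to 341) in 20 of 64 barcodes, against 2.24 CPM in 4 of 341 without. In chimera rat it was at 384 CPM (351 to 419.5) in 61 of 116 against 8.26 CPM in 5 of 290. In mouse progenitors 41 Tnnt2 UMIs were counted in 3 of 12 barcodes with Myog, 36 of them in 1 barcode, against 0 of 37 without, which allows a share of up to 8.11%. In myofibre-like barcodes Tnnt2 was at 24.8 CPM in the SD rat and 28.6 in chimera rat, and Tnni3 at 0.602 and 2.54. Fast troponins were read per barcode, since barcodes with Myog were deeper (median 11204 against 6127 UMIs in the SD rat, 10608 against 6576 in chimera rat). The median was 21 fast UMIs with Myog (quartiles 16.75 and 28.25) and 20 without (16 and 25) in the SD rat, 12 (8 and 16) and 10 (7 and 14) in chimera rat, and 9.5 and 11 in mouse progenitors. The means were 39.2 and 29.4 in the SD rat and 18.5 and 14.6 in chimera rat, and the quartile ranges overlapped. As CPM the order was the other way, with Tnnt3 at 1152 with and 1471 without Myog in the SD rat and at 533 and 720 in chimera rat. The fusion genes Mymk and Mymx were at 275 and 127.5 CPM with Myog in the SD rat and at 0.449 CPM and 0 without Myog, which allows up to 0.880% of barcodes for Mymx. As CPM the other differentiation genes were divided. Ckm was not higher with Myog, at 1208 against 1403 CPM in the SD rat and 708 against 713 in chimera rat. As a mean per barcode, Ckm was higher with Myog in both. In the SD rat it had 909 UMIs over 64 barcodes with Myog and 3128 over 341 without. In chimera rat the numbers were 905 over 116 and 1381 over 290. Acta1 was higher, at 4376 against 3319 CPM and 3972 against 1741. Slow Tnni1 was at 21.9 CPM with and 2.58 without Myog in chimera rat, from 28 UMIs in 8 barcodes with Myog, 9 of these UMIs in 1 barcode. Tnnt1 was at 14.1 and 3.61 CPM there and Tnnc1 at 21.9 and 4.13. In the SD rat Tnni1 was at 9.30 with and 4.49 without Myog, from 7 and 10 UMIs. Tnnt1 was at 34.5 and 23.8 CPM in the SD rat. Tnnc1 was at 18.6 CPM (10.2 to 31.2) with and 24.2 (18.2 to 31.6) without Myog there. These values came from 14 UMIs over 64 barcodes, 7 of them in 1 barcode, and 54 over 341, so no direction is read. In mouse progenitors Tnnt1 and Tnni1 had 22 and 12 UMIs on mouse genes and Tnnc1 had 0, which allows up to 6.47 CPM, and 10 of the Tnnt1 UMIs came from 1 barcode.

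Between the animals, fast troponins of rat fibres were at nearly the same level and slow troponins were lower in the chimera, by a size that rested on 1 barcode. Summed fast troponins, counted on rat genes and scaled to rat UMIs, were at 128254 CPM in chimera rat and 123576 in SD rat myofibre-like barcodes, a log2 ratio of 0.0536 (0.0488 to 0.0584). The ratio turned to -0.0352 when rat and mouse genes were summed. Tnnt3 and Tnnc2 were at 0.09 and 0.15, and Tnni2 at -0.15. Summed slow troponins were at 910 and 1359 CPM, a log2 ratio of -0.58 (-0.63 to -0.53). Without the chimera rat barcode that held most slow UMIs the sum was at 565 CPM and the ratio at -1.27 (-1.33 to -1.20), and without the corresponding barcode of each animal at -1.13 (-1.19 to -1.07). Tnnt1 lay furthest below the SD rat (408 against 685 CPM, log2 -0.75, -0.83 to -0.67), and Tnni1 (-0.40) and Tnnc1 (-0.44) were also lower. Over 4048 genes the median log2 ratio was -0.20 with quartiles of -0.50 and 0.09, and relative to that median the fast sum was at 0.25 and the slow sum at -0.38. With all barcodes none of the 6 members differed by 2-fold, a size that 6.62% of those genes passed downward and 0.692% upward. Without that chimera rat barcode Tnnt1 (-1.45), Tnni1 (-1.06) and Tnnc1 (-1.13) all did, where 7.06% of 4039 genes passed downward, and without the barcode of each animal Tnnt1 did (-1.31), with Tnni1 and Tnnc1 at -0.94 and -0.99. The slow sums came mostly from 41 and 14 mostly slow barcodes. Within those barcodes, rat and mouse genes summed, Tnnt1 was at 25370 CPM in the SD rat and 23878 in chimera rat, and Tnnc1 at 15513 and 17535. The muscles were not kept apart, and the part of their proportions in the ratio was not tested.

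**Figure D5:**
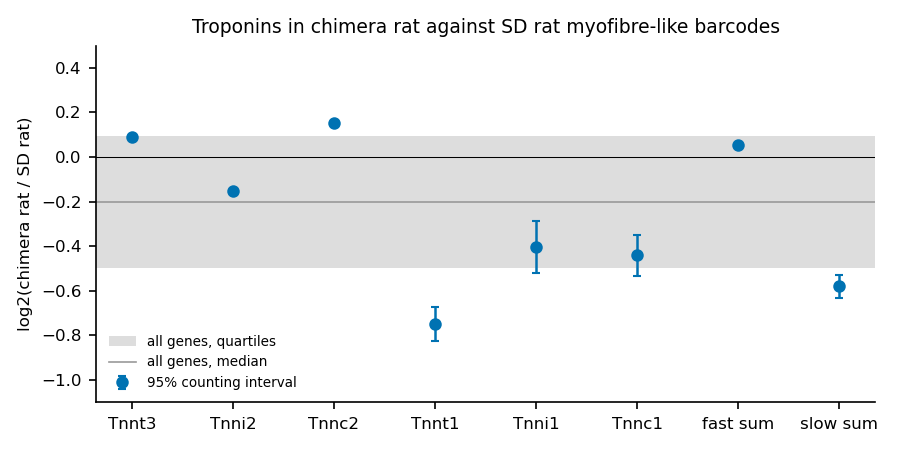
Log2 ratio of chimera rat (n = 831) over SD rat (n = 1522) myofibre-like barcodes for the 6 troponins and the fast and slow sums, with 95% counting intervals. The grey line and band are the median (-0.20) and quartiles (-0.50 and 0.09) of 4048 genes, and the slow genes lie between -0.40 and -0.75, below that median, and between -1.06 and -1.45 without 1 chimera rat barcode.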

How the data were processed

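Single-cell libraries (10x Genomics 3′ v3.1) were made from dissociated muscle, and live cells were sorted before loading. The authors deposited unnormalized UMI counts, which they made with Cell Ranger 7.1.0 on builds that the submitters' processing notes name as mRatBN7.2 and GRCm39, with barcodes already selected as cells. The chimera table holds rat and mouse genes and the SD rat table rat genes alone, so a rat read that also matches mouse could be lost to its rat gene in that table alone.

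Barcodes with at least 500 UMIs, 200 genes and at most 20% mitochondrial UMIs were kept. Scrublet in scanpy 1.11.5 (expected rate 8%) marked 444 of 12174 chimera and 164 of 8980 SD rat barcodes as doublets, which were left out. The 4 populations were clustered separately without the troponins (2000 variable genes, 30 components, 15 neighbours, leidenalg 0.10.2, resolution 1). Classes are called "-like" from fixed markers, are rebuilt and are not the study's, and a cluster without at least 3 raised markers or with conflicting ones stayed unnamed. A marker was raised at 2-fold and in 10% of cells. Member counts are sums over rat and mouse genes unless said, and class makeup and the shares of barcodes with a single gene use genes of the barcode's own species.

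The chimera library summed to 118872850 UMIs and the SD rat library to 70957559. With 1 library per group no test was run. Shares carry exact Clopper-Pearson intervals, CPM exact Poisson intervals and ratios intervals from the exact binomial, at 95%. A count of 0 was given the limit of 3 counts. UMIs were thinned to 1000 per barcode where shares of barcodes were compared. Ratios used genes with at least 100 UMIs over both sums.

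Genes named are the 6 members, Tnnt2 and Tnni3, up to 5 of each list with the largest difference between mostly slow and mostly fast barcodes, differentiation genes in progenitors, and the 5 genes ranking most like each set among genes found in 10% of SD rat myofibre-like barcodes. Members and lists were chosen with earlier results of these data known. The scripts were tested on simulated data. Alternatives covered doublets, filters, species calls, clustering, thresholds, scaling and thinning.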

Additional observations from a re-analysis of the deposited data

How the results depend on the processing

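No paired analysis was possible because each group had 1 library. The share of mostly slow barcodes moved beyond its counting interval only when over 90% slow was required, to 0.723% in the SD rat and 0.842% in chimera rat. In the SD rat it stayed between 2.49% and 3.09% under the other 12 alternatives, in chimera rat between 1.09% and 1.81% under the other 13, and in mixed barcodes between 0.482% and 1.64% under 12, while mouse stayed at 0 under 13. The log2 ratio of summed fast troponins, whose counting interval is narrow, was 0.0590 with doublets kept, 0.0482 with at least 1000 UMIs, 0.0638 with species called at 90%, 0.0464 with all chimera barcodes clustered together, 0.0708 with fibres picked by marker share and 0.0449 without mitochondrial UMIs, and it reversed to -0.0352 with rat and mouse genes summed. Without the chimera rat barcode of most slow UMIs, an alternative chosen after seeing the data, it was 0.0617. The slow ratio moved to -0.67 without a mitochondrial limit and to -0.70 with rat and mouse genes summed. It was -1.27 without the chimera rat barcode of most slow UMIs, -0.44 without that of the SD rat and -1.13 without both, also chosen after seeing the data. It was negative under all 13 alternatives. The thinned share of FAP-like barcodes with a fast troponin UMI depended on depth by construction. Without thinning it was 100% in the SD rat, 99.7% in chimera rat, 99.5% in mixed and 72.2% in mouse barcodes, and at 2000 UMIs 96.6%, 81.4% and 84.8% in the first 3. With species called at 90% it was 49.9% in chimera rat and 61.6% in mixed barcodes. With a minimum of 1000 UMIs per gene, chosen after seeing the data, 28 genes of 846 were at least 2-fold lower and 2 higher in chimera rat, where the minimum of 100 gave 268 and 28 of 4048. For single troponins no alternative turned the direction of a ratio. The 29 mouse fibres, and 41, 14 and 4 mostly slow barcodes, limit the precision, and no depth replaces further animals.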
